A study of Homo sapiens with 6 samples.

Results

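FOS, FOSB, FOSL2, JUN, JUNB, JUND, ATF3, EGR1, IER2 and IER3 were examined as a group of immediate early and related genes. All 10 were found by symbol among the 61806 Ensembl gene IDs of the count table, each under 1 ID. Their RNA was measured by sequencing in U937, a human monocyte-like cell line listed as AML. The 3 treated libraries came from cells given ethacrynic acid, a loop diuretic that reacts with thiols, and the 3 control libraries from cells given the vehicle DMSO. The titles say day 3 and the treatment note says 2 days, and no dose is given in the labels used here. The labels name no genetic change in either group, and nothing in them says that the replicates were separate cultures. The p-values below therefore reflect no more than library-to-library spread, part or all of which may be technical.

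Immediate early genes are transcribed within minutes of a signal from existing transcription factors, without new protein synthesis, and their mRNAs are short-lived. FOS, FOSB and FOSL2 encode Fos proteins, which bind DNA as AP-1 only when paired with a Jun protein, whereas JUN, JUNB and JUND proteins can also pair with each other. EGR1 is a zinc-finger factor that MAP kinase signalling induces through serum response factor and its ETS partners, and in myeloid cells EGR1 and the Jun proteins are known for their part in monocytic differentiation. ATF3 is a stress-induced factor of the wider ATF and AP-1 group, while IER2 and IER3 are small response proteins outside it, of which IER3 modulates survival.

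The libraries held 57516146 to 68128543 counts, and each of the 10 genes had between 198 and 12260 counts in every library, so all passed the filter on low counts. Monocytic and myeloid markers summed to 3061 to 3919 CPM in ethacrynic acid and 2531 to 2917 CPM in DMSO libraries (CPM, counts per 1000000 after TMM scaling). The members of that list differed in direction: ITGB2 averaged 1519 CPM with ethacrynic acid and 1178 CPM with DMSO, and LYZ averaged 656 CPM with ethacrynic acid and 211 CPM with DMSO. PTPRC was at 113 to 168 CPM with ethacrynic acid and 184 to 229 CPM with DMSO. MPO averaged 2.22 CPM with ethacrynic acid and 2.94 CPM with DMSO, and its groups overlapped. ITGB2, LYZ, PTPRC and MPO were picked with their values known, and none passed the test used below (edgeR adjusted p of 0.11 to 0.57). The groups also overlapped in CD33, CD4 and FCGR1A (log2 fold changes -0.08, -0.05 and 0.06). T cell markers summed to 6.25 to 12.9 CPM with ethacrynic acid and 9.84 to 11.2 CPM with DMSO, B cell markers to 5.197 to 8.86 CPM with ethacrynic acid and 5.46 to 7.69 CPM with DMSO, and fibroblast markers to 1.15 to 2.56 CPM with ethacrynic acid and 1.55 to 2.06 CPM with DMSO. Of the erythroid markers HBB and HBA1 were at 0 throughout, and ALAS2 had at most 11 counts in a library. Epithelial markers (EPCAM, KRT8, KRT18 and CDH1, 4 of 4 tested and none at 0) summed to 33.6, 40.1 and 367 CPM in ethacrynic acid replicates 1, 2 and 3, against 25.4 to 40.1 CPM in DMSO libraries. Ethacrynic acid replicate 3 also lay far from the rest on principal component 1 of all genes (93.9, with the other 5 libraries between -36.9 and -10.4). Results that turn on it are given with and without it.

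Sequences before the RefSeq start sites of EGR1, JUND and JUN are shown because they hold letters that match known binding sites of serum response factor or of AP-1 and ATF proteins. RefSeq windows of 250 bases before the start (GRCh38.p14) matched 9 of the 10 genes, all but IER3. RefSeq and GENCODE starts differ, so the windows of JUN and FOSL2 and the second ATF3 window lie inside the GENCODE gene, and those of FOS and FOSB and the first ATF3 window reach into it. Both strands were searched for the CArG box, to which serum response factor binds, for the sites TGACGTCA (the cyclic AMP response element), TGACTCA and TGACATCA, to which AP-1 and ATF proteins bind, and for GCGTGGGCG, an EGR1 site. EGR1 held 2 CArG boxes, at -105 to -96 and -83 to -74 from the start, and 1.16% of all 35116 windows held any. JUND held TGACGTCA at -200 to -193 (1.65% of all windows). JUN held TGACATCA at -67 to -60, and ATF3 held it at -123 to -116 (2.37% of all windows). The windows of FOS, FOSB, FOSL2, JUNB and IER2 held none of these letters, and no window of the 9 genes held TGACTCA (4.20% of all windows) or GCGTGGGCG (0.720%). Only exact matches to these patterns within the 250 bases were searched. Sites farther away or with differing letters would be missed, so a window without a match does not show that a gene lacks such sites. No matches overlapped. The sequences run 5′ to 3′ on the strand of the gene, and capitals mark the matches, for EGR1 at chr5:138465229-138465478 (plus strand), JUND at chr19:18281623-18281872 (minus strand) and JUN at chr1:58784096-58784125 (minus strand), of which only the site is shown.
EGR1: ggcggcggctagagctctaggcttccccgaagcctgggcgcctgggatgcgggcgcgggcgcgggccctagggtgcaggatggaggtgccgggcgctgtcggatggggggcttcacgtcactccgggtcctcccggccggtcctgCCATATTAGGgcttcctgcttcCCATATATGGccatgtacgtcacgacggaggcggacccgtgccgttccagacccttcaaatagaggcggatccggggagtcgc
JUND: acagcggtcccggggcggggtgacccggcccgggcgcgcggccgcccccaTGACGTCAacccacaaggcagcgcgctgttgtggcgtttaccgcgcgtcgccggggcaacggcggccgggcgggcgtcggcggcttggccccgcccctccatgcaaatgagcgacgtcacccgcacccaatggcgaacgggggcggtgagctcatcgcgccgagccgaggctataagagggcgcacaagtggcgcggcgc
JUN: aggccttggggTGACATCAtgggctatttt

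Levels of different genes were compared per kilobase of annotated exon (CPM per kb). IER2 was the most abundant of the 10, at 57.2 ± 9.51 CPM per kb with ethacrynic acid and 45.3 ± 5.10 CPM per kb with DMSO (SD, n = 3 each, as in all that follows). In ethacrynic acid libraries JUND (53.7 ± 13.0) and JUNB (47.6 ± 7.24) came next, followed by IER3 (18.4 ± 15.9), JUN (10.6 ± 0.430), EGR1 (3.81 ± 4.11), FOSL2 (3.73 ± 0.372), FOS (2.83 ± 1.73), ATF3 (1.57 ± 0.281) and FOSB (0.833 ± 0.173), all in CPM per kb. In DMSO libraries the order was JUNB (37.2 ± 3.06), JUND (36.1 ± 5.61), JUN (7.77 ± 0.580), IER3 (5.32 ± 1.04), EGR1 (4.16 ± 5.13), FOSL2 (2.70 ± 0.300), FOS (1.80 ± 0.494), ATF3 (1.12 ± 0.0591) and FOSB (0.747 ± 0.0784). Thus IER2, JUNB and JUND formed an abundant tier whose lowest library lay above the highest of the 4th-ranked gene in both groups, and the Fos genes, ATF3 and most EGR1 values lay far below. With ethacrynic acid, libraries of neighbouring genes overlapped except between JUNB and IER3, between JUN and EGR1, and between ATF3 and FOSB. With DMSO, they overlapped only between JUNB and JUND, IER3 and EGR1, and EGR1 and FOSL2.

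**Figure D1:**
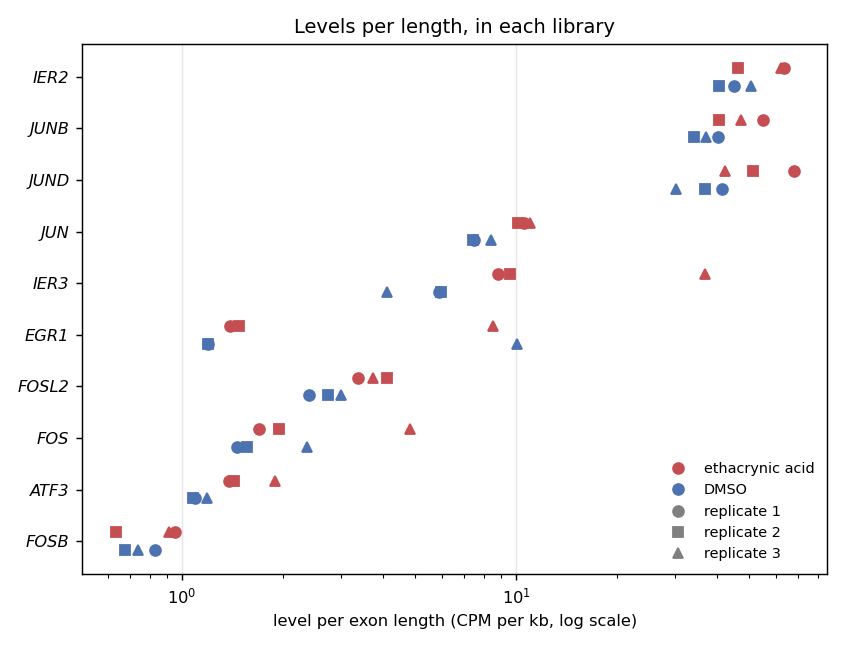
Levels of the 10 genes in CPM per kb of exon (log axis), with 1 point per library, ethacrynic acid in red above DMSO in blue, and the shape giving the replicate number. IER2, JUNB and JUND lie between 30.2 and 67.8 CPM per kb in every library, and FOSB, at the bottom, stays under 1 CPM per kb.

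None of the 10 genes passed the test between ethacrynic acid and DMSO (edgeR quasi-likelihood, Benjamini-Hochberg adjusted p under 0.05 over 19611 genes), a threshold that 0.265% of all tested genes passed. Log2 fold changes were above 0 in 9 of the 10 (median over the 10 genes 0.45), while 49.9% of all tested genes were above 0 and their median was -0.00. Of these 9, FOS, FOSB and IER2 had groups that overlapped. In 6 genes, FOSL2, JUN, JUNB, JUND, ATF3 and IER3, every ethacrynic acid library lay above every DMSO library, a pattern seen in 8.64% of all tested genes (17.6% separated in either direction). Without any single library between 6 and 9 of the genes had this pattern, against at most 17.5% of all tested genes. At an unadjusted p under 0.05 there were 7 genes, all higher with ethacrynic acid, where 6.54% of all tested genes were higher (11.1% in either direction). Without ethacrynic acid replicate 3 there were 5 such genes, and the median log2 fold change of the 10 was 0.34. Without DMSO replicate 2, without DMSO replicate 3, without the replicates numbered 3 of both groups or with total count scaling there were 4. There were 8 with the replicate number as a block, and 7 without ethacrynic acid replicate 1 or without replicate 2. The shares of all tested genes in these settings were not computed. DESeq2 called JUN and FOSL2 as higher, as it did 2.05% of all tested genes (3.13% in either direction), and limma-voom called none of the 10 (0.265% of all tested genes). With the replicate number as a block JUND alone was called, as were 1.81% of all tested genes (1.26% as higher). Without ethacrynic acid replicate 3 none of the 10 was called (0.730% of all tested genes, 0.592% as higher), nor without the replicates numbered 3 of both groups (0.143%, 0.122% as higher). The genes were chosen with earlier results of these libraries known, so these shares describe them and do not test them. In a bulk culture, a change in the mix of cell states and a change in RNA per cell cannot be told apart.

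**Figure D2:**
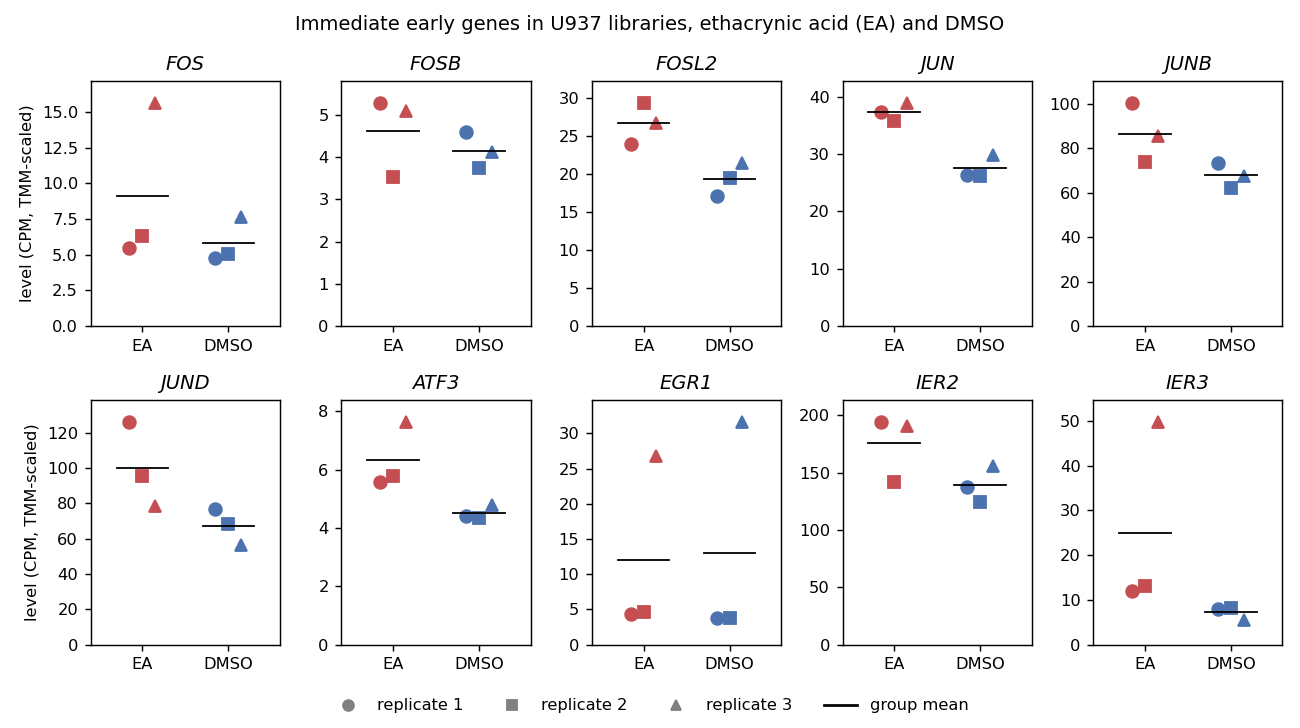
Level of each gene (CPM, linear axes from 0) in each library, ethacrynic acid (EA) in red left of DMSO in blue, with the shape giving the replicate number and the bar the group mean. JUN libraries lie at 35.8 to 38.9 CPM with ethacrynic acid and 26.2 to 29.9 CPM with DMSO, while EGR1 is at 26.9 and 31.7 CPM in the replicates numbered 3 and under 5 CPM in the other libraries.

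**Figure D3:**
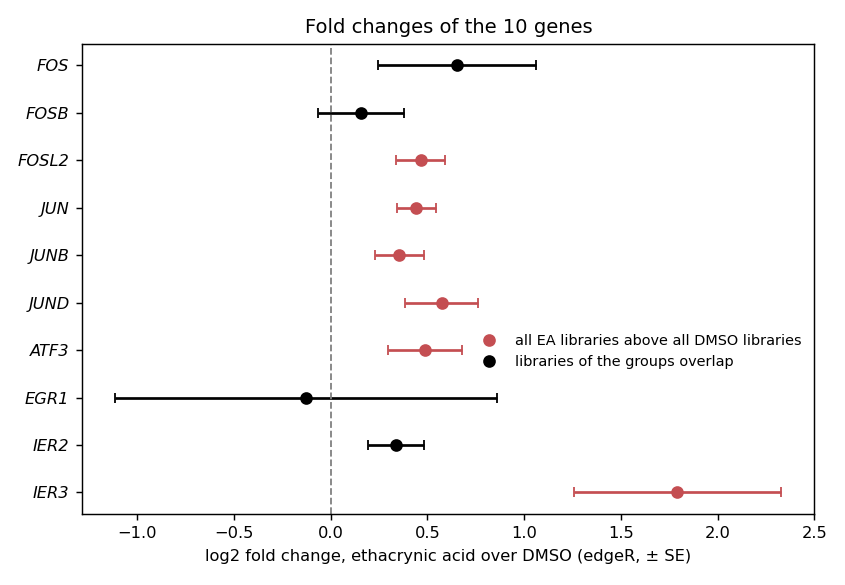
Log2 fold change of each gene, ethacrynic acid over DMSO, from edgeR, with bars of 1 SE. Red points are genes whose ethacrynic acid libraries all lie above the DMSO libraries, and black points overlap. IER3 lies farthest right at 1.79, and EGR1 is the only gene left of 0, with an SE of 0.99.

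Among the Jun genes, JUN (ENSG00000177606, GRCh38 chromosome 1, 58780788 to 58784327), which encodes the c-Jun subunit, was at 37.4, 35.8 and 38.9 CPM in ethacrynic acid libraries and 26.4, 26.2 and 29.9 CPM in DMSO libraries. The lowest ethacrynic acid library thus lay above the highest DMSO library, and the spread within a group was narrow, with a coefficient of variation of 4.07% with ethacrynic acid and 7.46% with DMSO. The log2 fold change was 0.44 ± 0.10 (SE, edgeR adjusted p = 0.19, the lowest of the 10 genes), and DESeq2 gave an adjusted p of 0.0023.

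JUND (ENSG00000130522, chromosome 19, 18279760 to 18281622), whose product is often growth-restraining and is abundant in resting cells, was at 126, 95.4 and 78.5 CPM with ethacrynic acid and 77.1, 68.3 and 56.3 CPM with DMSO. The groups were separated by 1.40 CPM. In each group replicate 1 was the highest library and replicate 3 the lowest. The log2 fold change was 0.57 ± 0.19 (SE, edgeR adjusted p = 0.36), and 0.38 without ethacrynic acid replicate 1.

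JUNB (ENSG00000171223, chromosome 19, 12791496 to 12793315), a Jun protein that can oppose c-Jun and restrain myeloid proliferation, was at 100.2, 73.9 and 85.7 CPM with ethacrynic acid and 73.4, 62.2 and 67.6 CPM with DMSO. Its groups were separated by 0.470 CPM (log2 fold change 0.35 ± 0.13 SE, edgeR adjusted p = 0.40). Exons of JUNB share 259 bases with HOOK2 on the opposite strand, and with no stated strand setting these reads cannot be told apart.

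The share of each gene in the Jun family overlapped between groups. JUND made up 50.8%, 50.2% and 42.0% of the summed level per kb in ethacrynic acid replicates 1, 2 and 3, against 46.4%, 46.9% and 39.9% in the DMSO replicates. JUN made up 7.92%, 9.93% and 11.0% with ethacrynic acid and 8.37%, 9.47% and 11.1% with DMSO. JUNB made up 41.3%, 39.8% and 47.0% with ethacrynic acid and 45.2%, 43.7% and 49.0% with DMSO. The replicates numbered 3 had the lowest JUND and the highest JUN share of their group.

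Among the Fos genes, FOSL2 (ENSG00000075426, chromosome 2, 28392448 to 28417312), which encodes Fra-2, a longer-lived Fos protein without the strong activation domain of c-Fos, was at 24.0, 29.3 and 26.8 CPM with ethacrynic acid and 17.1, 19.5 and 21.4 CPM with DMSO. The groups did not overlap (log2 fold change 0.46 ± 0.13 SE, edgeR adjusted p = 0.28), and DESeq2 gave an adjusted p of 0.031.

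FOS (ENSG00000170345, chromosome 14, 75278774 to 75282230), which encodes c-Fos, was at 5.50, 6.34 and 15.6 CPM with ethacrynic acid and 4.74, 5.08 and 7.66 CPM with DMSO. Replicate 3 was the highest in both groups, and ethacrynic acid replicates 1 and 2 lay below DMSO replicate 3. The log2 fold change of 0.65 ± 0.41 (SE, edgeR adjusted p = 0.58) was 0.02 without ethacrynic acid replicate 3 and 0.26 without the replicates numbered 3 of both groups.

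FOSB (ENSG00000125740, chromosome 19, 45467995 to 45475179), a Fos protein best known for long-lasting splice forms in neurons, was at 5.27, 3.52 and 5.08 CPM with ethacrynic acid and 4.60, 3.74 and 4.11 CPM with DMSO. The lowest library of all was an ethacrynic acid library, and the groups overlapped (log2 fold change 0.16 ± 0.22 SE, edgeR adjusted p = 0.82). Leaving out ethacrynic acid replicate 1, 2 or 3 gave 0.06, 0.32 and 0.08, DMSO replicate 1 or 2 gave 0.24 and 0.08, total count scaling gave 0.08, and leaving out the replicates numbered 3 gave 0.07.

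The summed Jun level per kb was 15.7, 11.6 and 7.38 times the summed Fos level (FOS, FOSB, FOSL1 and FOSL2) in ethacrynic acid libraries and 13.6, 11.9 and 9.46 times in DMSO libraries. Jun RNA thus exceeded Fos RNA in every library, and the ratio overlapped between groups and was lowest in replicate 3 of each. FOSL1, named after its values were seen because it completes the family, was at 4.72, 3.99 and 7.71 CPM with ethacrynic acid and 3.56, 3.03 and 3.61 CPM with DMSO.

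ATF3 (ENSG00000162772, chromosome 1, 212565334 to 212620777), a stress-induced factor that damps inflammatory genes in macrophages, was at 5.58, 5.78 and 7.65 CPM with ethacrynic acid and 4.43, 4.34 and 4.79 CPM with DMSO. The groups did not overlap (log2 fold change 0.49 ± 0.19 SE, edgeR adjusted p = 0.42), and the value was 0.32 without ethacrynic acid replicate 3, the highest library.

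EGR1 (ENSG00000120738, chromosome 5, 138465490 to 138469315) was high in replicate 3 of both groups and did not differ detectably between treatments. It was at 4.37, 4.65 and 26.9 CPM in ethacrynic acid replicates 1, 2 and 3, from 267, 261 and 1728 counts, and at 3.75, 3.77 and 31.7 CPM in the DMSO replicates, from 255, 260 and 2272 counts. Replicate 3 was 5.78 times the higher of the other ethacrynic acid libraries and 8.41 times the higher of the other DMSO libraries. The labels do not say what a shared replicate number means. The log2 fold change was -0.13 ± 0.99 (SE, edgeR adjusted p = 0.98), and DESeq2 gave no p for this gene. It was -1.54 without ethacrynic acid replicate 3, 1.67 without DMSO replicate 3 and 0.26 without both. Without ethacrynic acid replicate 1 or 2 it was 0.28 and 0.26, so its sign turned with the libraries used. With the replicate number as a block, the log2 fold change of EGR1 was 0.085 ± 0.14 (SE, edgeR adjusted p = 0.79).

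A level at least 2 times that of both other libraries, in replicate 3 of both groups, was met by 81 genes, 0.413% of those tested. EGR1 was the only one of the 10 genes that met it and, at a mean of 12.5 CPM, the most abundant of the 81. The next, the readthrough gene IFNAR2-IL10RB, had a mean of 5.03 CPM. This condition was chosen after the values were seen. Replicate 3 was the highest library of both groups in 4 of the 10 genes (FOS, JUN, ATF3 and EGR1), while 19.0% of all tested genes had that pattern. EGR2 and EGR3 did not have this pattern. EGR2 was at 1.72, 2.01 and 1.83 CPM with ethacrynic acid and 1.34, 1.12 and 1.69 CPM with DMSO, EGR3 was lowest in replicate 3 of both groups, and the EGR1 corepressor gene NAB2 was at 20.2 and 16.5 CPM in the ethacrynic acid and DMSO replicates 3, with 30.9 to 37.7 CPM in the other libraries. These 3 genes were chosen after their values were seen.

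**Figure D4:**
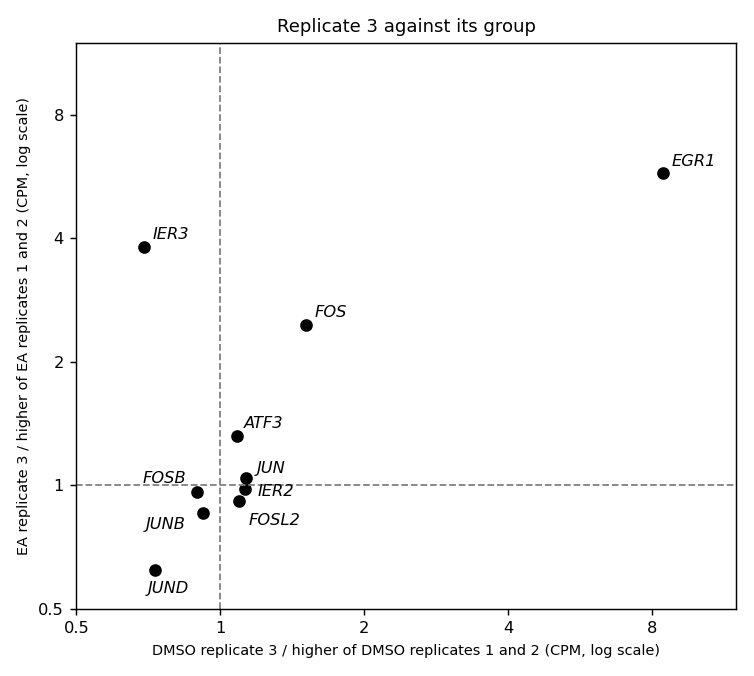
Level in replicate 3 divided by the higher of replicates 1 and 2, in ethacrynic acid (vertical) and DMSO libraries (horizontal), both on log axes, with dashed lines at 1. EGR1 lies at 5.78 and 8.41, FOS at 2.47 and 1.51, IER3 at 3.82 and 0.691, and JUND at 0.622 and 0.730.

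IER3 (ENSG00000137331, chromosome 6, 30743199 to 30744554), a short-lived protein induced by NF-kB and stress that modulates apoptosis, had the largest log2 fold change of the 10, 1.79 ± 0.54 (SE, edgeR adjusted p = 0.32). It was at 11.97, 13.0 and 49.8 CPM with ethacrynic acid and 7.96, 8.08 and 5.59 CPM with DMSO. Every ethacrynic acid library lay above every DMSO library, but replicate 3 alone was 3.82 times the higher of the other ethacrynic acid libraries, and without it the log2 fold change was 0.79 (adjusted p = 0.14), and 0.63 without the replicates numbered 3 of both groups. Ethacrynic acid replicate 3 is also the library in which the epithelial markers summed to 367 CPM, against 25.4 to 40.1 CPM in the other 5, and in which PHLDA1 (26.7 CPM, against 4.22 to 6.25) and CCND1 (16.8 CPM, against 1.85 to 2.65), both chosen after their values were seen, stood out. The part of these differences in the IER3 and FOS values was not tested.

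IER2 (ENSG00000160888, chromosome 19, 13150415 to 13154908), a nuclear protein of the growth factor response, was at 194, 142 and 191 CPM with ethacrynic acid and 138, 124 and 155 CPM with DMSO. The groups overlapped through ethacrynic acid replicate 2 (log2 fold change 0.34 ± 0.14 SE, edgeR adjusted p = 0.44). Genes annotated opposite IER2 and IER3 had at most 6 counts in any library.

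The genes around this response were examined in 7 lists, in which 118 of 124 genes were tested, 3 passed as higher (0.229% of all tested genes did) and none as lower. Genes with known AP-1 or EGR1 control in monocytes were all positive (19 of 19 tested, median log2 fold change 1.09), and the 3 calls were in this list. Of all tested genes 49.9% were positive. The list was chosen with earlier results of these libraries known, so these values describe it and do not test it. The part of AP-1 or EGR1 in these values was not tested. The neutrophil chemokine gene CXCL8 averaged 32.9 ± 13.1 CPM with ethacrynic acid and 4.17 ± 0.836 CPM with DMSO (log2 fold change 2.98 ± 0.31 SE, edgeR adjusted p = 0.015). The urokinase receptor gene PLAUR averaged 79.8 ± 14.0 CPM with ethacrynic acid and 33.5 ± 4.08 CPM with DMSO (1.25 ± 0.15, adjusted p = 0.023), and the chemokine gene CCL3 11.5 ± 1.34 CPM with ethacrynic acid and 5.01 ± 0.247 CPM with DMSO (1.20 ± 0.16, adjusted p = 0.035). CCL4, a related chemokine gene, averaged 2.14 ± 0.515 CPM with ethacrynic acid and 0.484 ± 0.0815 CPM with DMSO (2.14 ± 0.32, adjusted p = 0.055). CCL3 and CCL4 have near-identical copies, which leaves their counts uncertain. Each of the 3 calls was lost without any 1 DMSO library (adjusted p of up to 0.141 for CXCL8, 0.158 for PLAUR and 0.211 for CCL3) and without ethacrynic acid replicate 2, and CCL3 was also lost without ethacrynic acid replicate 1 (adjusted p = 0.066). Over the 118 tested genes of the 7 lists DESeq2 called 15 as higher and 2 as lower, where it called 2.05% of all tested genes as higher and 3.13% in either direction. Without ethacrynic acid replicate 3 edgeR called 8 genes of the lists, and 0.730% of all tested genes in either direction.

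**Figure D5:**
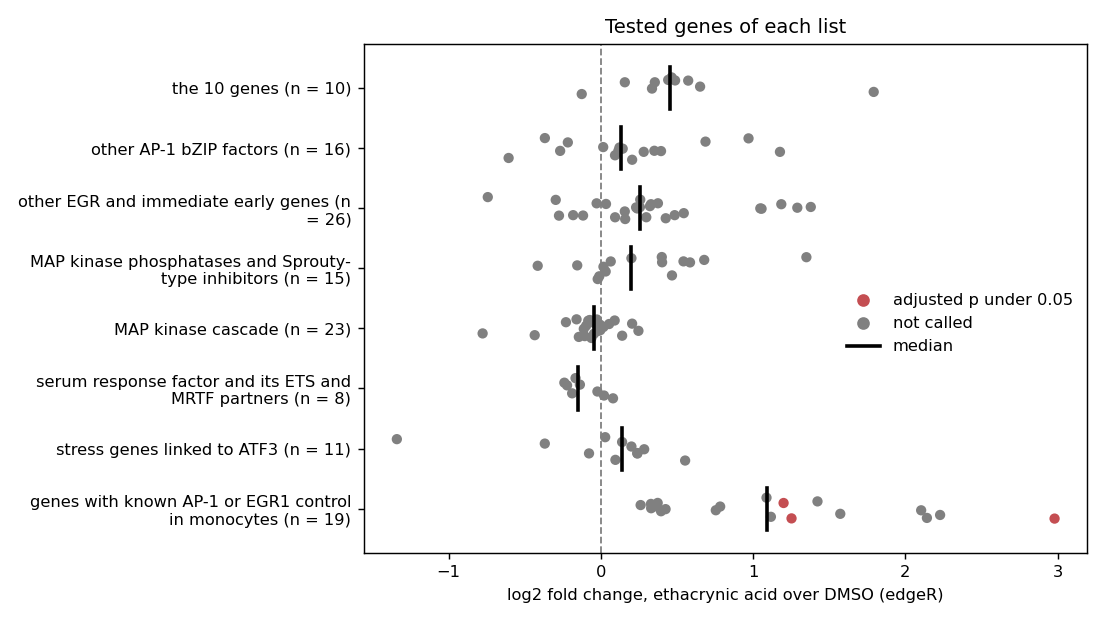
Log2 fold change, ethacrynic acid over DMSO, of each tested gene in the 10 genes and in the 7 lists (rows), with red points for an adjusted p under 0.05 and a black bar at the median. Genes with known AP-1 or EGR1 control have a median of 1.09 and hold the 3 red points. The MAP kinase cascade and the serum response factor group have medians of -0.05 and -0.15. The lists were chosen with earlier results of these libraries known.

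No gene passed in the other 6 lists. Other AP-1 bZIP factors were positive in 12 of 16, with a median log2 fold change of 0.13. The small Maf genes, whose products partner bZIP factors such as NRF2, had values of 0.97 ± 0.22 (MAFF, 5.48 ± 0.956 CPM with ethacrynic acid and 2.80 ± 0.308 CPM with DMSO) and 0.35 ± 0.08 (MAFG), with edgeR adjusted p of 0.18 and 0.21. NFE2, an erythroid and megakaryocytic partner of small Maf proteins, had -0.61 ± 0.17 (adjusted p = 0.28). DESeq2 called MAFF, MAFG and NFE2.

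Other EGR and immediate early genes were positive in 20 of 26 tested of 29 (median log2 fold change 0.26). SGK1, a serum- and glucocorticoid-induced kinase gene, averaged 21.9 ± 2.59 CPM with ethacrynic acid and 10.6 ± 1.96 CPM with DMSO (1.05 ± 0.17, edgeR adjusted p = 0.072), and it passed with the stricter filter (adjusted p = 0.030) and when ethacrynic acid replicate 3 was left out (adjusted p = 0.036). The antiproliferative genes BTG1 (0.32 ± 0.09, adjusted p = 0.28, passing with DESeq2) and BTG2 (0.33 ± 0.14, adjusted p = 0.43) and IER5L (0.54 ± 0.21, adjusted p = 0.42) did not pass.

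MAP kinase phosphatases and Sprouty-type inhibitors, which restrain the pathway upstream of FOS and EGR1, were positive in 11 of 15 tested of 16 (median log2 fold change 0.20). DUSP6, a phosphatase of ERK, was at 49.1, 58.7 and 76.9 CPM with ethacrynic acid and 28.7, 38.5 and 48.2 CPM with DMSO (0.68 ± 0.22, edgeR adjusted p = 0.35). The groups did not overlap, and replicate 3 was the highest in each. Without ethacrynic acid replicate 3 the log2 fold change of DUSP6 was 0.48. DUSP5 had 0.47 ± 0.16 (adjusted p = 0.37), DUSP8 1.35 ± 0.43 (adjusted p = 0.34) and DUSP16, a JNK and p38 phosphatase, -0.42 ± 0.16 (adjusted p = 0.42). The value of DUSP8 rests on low levels, 0.864 ± 0.260 CPM with ethacrynic acid and 0.338 ± 0.118 CPM with DMSO, from 18 to 74 counts per library.

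The kinases of the MAP kinase cascade were positive in 6 of 23 tested of 24, with a median log2 fold change of -0.05. BRAF averaged 31.6 ± 3.69 CPM with ethacrynic acid and 42.7 ± 3.90 CPM with DMSO (-0.44 ± 0.12, edgeR adjusted p = 0.29), and DESeq2 called it as lower (adjusted p = 0.049). RPS6KA1, MAP2K3 and MAPK9 had 0.25 ± 0.14, 0.20 ± 0.13 and -0.15 ± 0.10 (adjusted p of 0.55 to 0.61). The list of serum response factor and its partners, which also holds CREB1 and ATF1, was positive in 2 of 8 (median -0.15). Among the partners, ELK4 and MRTFB had -0.17 ± 0.10 and -0.22 ± 0.20. CREB1 and ATF1, which are not among those partners, had -0.19 ± 0.11 and -0.24 ± 0.17 (edgeR adjusted p of 0.54 to 0.71 for all of these genes). Stress genes linked to ATF3 were positive in 8 of 11 (median 0.14). Among them the asparagine synthetase gene ASNS had -0.37 ± 0.11, DDIT3, which encodes CHOP, 0.55 ± 0.20, DDIT4 0.28 ± 0.12 and GADD45B 0.24 ± 0.12 (adjusted p of 0.32 to 0.51).

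The genes whose log2 CPM followed the mean standardized profile of the 10 genes most closely over the 6 libraries, among 11012 genes of at least 5 CPM outside the lists, were ENSG00000279359 (Pearson r = 0.99), KLHL21 (0.99), ZNF559 (0.99), AGA (0.97) and SPRYD4 (0.97). These points share their libraries and depth, and the values are a description. KLHL21, a ubiquitin ligase adaptor gene, was at 132, 104 and 161 CPM with ethacrynic acid and 85.6, 74.0 and 86.2 CPM with DMSO, without overlap. The profile it was chosen to match itself separates the groups, so this lack of overlap follows from the choice.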

How the data were processed

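RNA-seq libraries of U937 cells, 3 given ethacrynic acid and 3 given DMSO, were sequenced after TRIzol extraction and a SMARTER kit for mRNA, according to the labels. Tools listed in the submitters' processing notes are edgeR, HISAT2, fastp and StringTie 1.3.4d, and the build is GRCh38. The table the authors deposited holds whole-number counts per Ensembl gene ID, not scaled between libraries. Which annotation release, strand setting and counting step were used is not given in the sources used here. Values of 4 were more frequent than counts of 3 or 5 (1249, 680 and 393 genes in ethacrynic acid replicate 1), so a read may weigh more than 1 count and the depth given is an upper limit.

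Each column was tied to its sample through the group and number in its name. Symbols were matched for 61757 IDs, and coordinates, exon lengths and overlaps are those of GENCODE 29 on GRCh38. The filterByExpr filter (minimum count 10, minimum total 15) left 19611 genes, which were TMM-scaled. The main test was edgeR 4.0.16 (R 4.3.3, quasi-likelihood), with the group as the only term and Benjamini-Hochberg adjustment over all genes tested. SE was derived from the fold change and the square root of its F statistic. Libraries of a group varied by 29.1% (square root of the common dispersion). The test was checked on simulated data with independent libraries. That check therefore does not cover an effect of the replicate number, an outlying library or weighted counts. Alternatives used DESeq2 1.42.0, limma 3.58.1, other scalings, filters and left-out libraries. Figures were drawn with matplotlib 3.10.9.

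The 10 genes, the lists and the alternatives were chosen with earlier results of these data known. All 10 genes are named, with up to 4 genes of smallest p and any called gene from each list, and the 5 genes most alike in pattern (log2 CPM, prior count 2). One gene that the rule names and 1 marker gene are not reported here. Any gene outside this rule is marked in the text as picked with its values known. Exceptions are cell type markers from fixed lists, genes overlapping 1 of the 10, and a gene named by its rank under a stated condition.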

Additional observations from a re-analysis of the deposited data

How the results depend on the processing

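No call among the 10 genes was lost, since none was made, and the log2 fold changes of the 9 genes other than EGR1 stayed positive under every alternative listed here. EGR1, at -0.13, changed sign to 0.11 with limma-voom, to 0.085 with the replicate block, to 0.28 and 0.26 without ethacrynic acid replicate 1 or 2, to 1.67 without DMSO replicate 3 and to 0.26 without the replicates numbered 3 of both groups (an alternative chosen after seeing the data). Leaving out ethacrynic acid replicate 3 gave -1.54. The number of the 10 genes called was 2 with DESeq2 and 0 under the other alternatives, the replicate block apart. The numbers called over all genes (52) and in the 7 lists (3) were 14 and 0 with no filter, 96 and 8 with the stricter filter of 5 CPM in 3 libraries, 614 and 17 with DESeq2, and 28 and 0 without the replicates numbered 3. With counts divided by 4 the lists had 6. When each library was left out in turn, the counts lay between 4 and 148 over all genes, between 0 and 8 in the lists, and at 0 for the 10 genes. Same-numbered libraries deviated together only weakly (r = 0.16, 0.059 and 0.087 over all genes for replicates 1, 2 and 3), although every library correlated best with its own number. With the replicate block as a term, 355 genes were called over all, 14 in the lists and 1 of the 10, JUND (log2 fold change 0.56, adjusted p = 0.029). Each of the 10 genes had a smaller SE with the block than in the main fit. For EGR1 it went from 0.99 to 0.14, and for IER3 from 0.54 to 0.52. Of the list genes named in the report, the block added calls for DUSP6 (adjusted p = 0.012), SGK1 (0.029), CCL4 and DDIT3 (0.035 each), BRAF (0.047) and MAFG (0.048). Of 640 values of single genes under the alternatives, 592 kept their direction and side of the threshold, 23 passed only in the alternative, 19 lost their call and 6, all of EGR1, changed sign. FOSB and EGR1 were not tested with the stricter filter. FOSB had the lowest count of the 10 genes in any library (198), so counting error weighs most on it. An adjusted p above the threshold does not show equal levels.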
